A study of Mus musculus with 24 samples.

Results

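The genes described here are 10 members of the Notch pathway, chosen by gene name as its ligands, receptors and target genes: the ligand genes Jag1, Jag2 and Dll1, the receptor genes Notch1, Notch2 and Notch3, and the target genes Hes1, Hes5, Hey1 and Heyl. They are 10 of 38355 genes in the count tables, of which 27576 had at least 1 read. All 10 members passed the filter on low counts in every comparison. The rule uses gene names and no measured value, but the members were chosen with earlier results of these data known. A count of members beside the share over all genes is therefore a description and not a test.

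Notch signalling passes between touching cells. A ligand of the Jagged or Delta-like family on one cell binds a Notch receptor on its neighbour, the protease ADAM10 and then the gamma-secretase complex cut the receptor, and the freed intracellular domain enters the nucleus, where it joins the DNA-binding protein RBPJ and turns on genes of the Hes and Hey families of transcriptional repressors. In the brain the pathway is known for keeping neural stem cells undifferentiated, for its part in astrocytes and in the walls of blood vessels, and for receptor activity in mature neurons.

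Polyadenylated RNA was sequenced from the dissected CA1 field of the hippocampus, a layer of pyramidal neurons that carries much of the output of that structure. All 24 libraries came from C57BL/6J mice aged 3 to 5 months. The genotype was either Kat2a fl/fl with CamKII_alpha-cre (Kat2a_cKO, here cKO) or Kat2a fl/fl with no Cre listed (control), so that both genotypes carry the floxed allele. Kat2a encodes a histone acetyltransferase found in the transcriptional coactivators SAGA and ATAC, and the CamKII-alpha promoter drives Cre in excitatory neurons of the forebrain, so glia and vessel cells are not its targets. Mice of each genotype were either exposed to novelty for 15 min or not exposed (naive), which gave 7 cKO novelty, 6 cKO naive, 5 control novelty and 6 control naive libraries. The labels give neither the time between exposure and dissection nor whether each library is a separate mouse, and the p-values below then measure only the spread between these libraries, which may be technical.

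Libraries held 10.7 to 35.75 M (mega) reads assigned to genes, with a median of 19.01 M reads. The shallowest was control naive library 2. Kat2a averaged 35.1 ± 2.26 CPM in cKO novelty libraries against 60.2 ± 3.57 CPM in control novelty libraries, and 36.2 ± 2.42 CPM in cKO naive libraries against 63.6 ± 3.98 CPM in control naive libraries (SD), 58.4% and 56.9% of the control level, with no overlap between genotypes. Kat2a counts cover the whole gene, and the labels do not say which part is floxed. CPM are read counts set to a common library size after TMM scaling. Markers of CA1 pyramidal neurons, astrocytes, endothelium and mural cells were present, with no list gene at 0 in all libraries. Library numbers in the titles were used to split each group into numbers 1 to 3 and 4 and above, a split taken from earlier results on these data, and values within each are given where a result rests on them.

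Per kilobase of exon, Hey1 was the highest of the 10 members and Heyl the lowest. Hey1 averaged 11.8 CPM per kb over the 24 libraries, and its lowest library (10.4 CPM per kb) lay above the highest library of each other member. A middle set followed, with Hes5 at 4.88, Jag2 at 4.02, Hes1 at 4.01 and Notch2 at 3.73 CPM per kb. The libraries of these 4 genes overlap, so their order is not resolved. Dll1 averaged 1.89, Notch1 1.79, Notch3 1.29, Jag1 1.08 and Heyl 0.816 CPM per kb, and neighbours in that order overlap as well. The lowest Notch2 library, at 3.32 CPM per kb, lay above the highest Dll1 library, at 2.42 CPM per kb. Among receptors, the Notch2 level per kilobase was thus apart from those of Notch1 and Notch3, whose highest libraries reached 2.19 and 1.59 CPM per kb. The gap depends on the lengths used, which are unions of all annotated exons. They were 14.2 kb for Notch1, 10.8 kb for Notch2 and 8.09 kb for Notch3, and other lengths were not tried. Reads per library numbered 40 to 142 for Heyl, 72 to 204 for Jag1 and 41 to 234 for Hes5, against 419 to 1288 for Hey1. The members differed in how much they varied, with a coefficient of variation over all libraries of 7.06% for Notch2 and 7.53% for Hey1, against 25.3% for Heyl and 23.9% for Hes5.

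**Figure D1:**
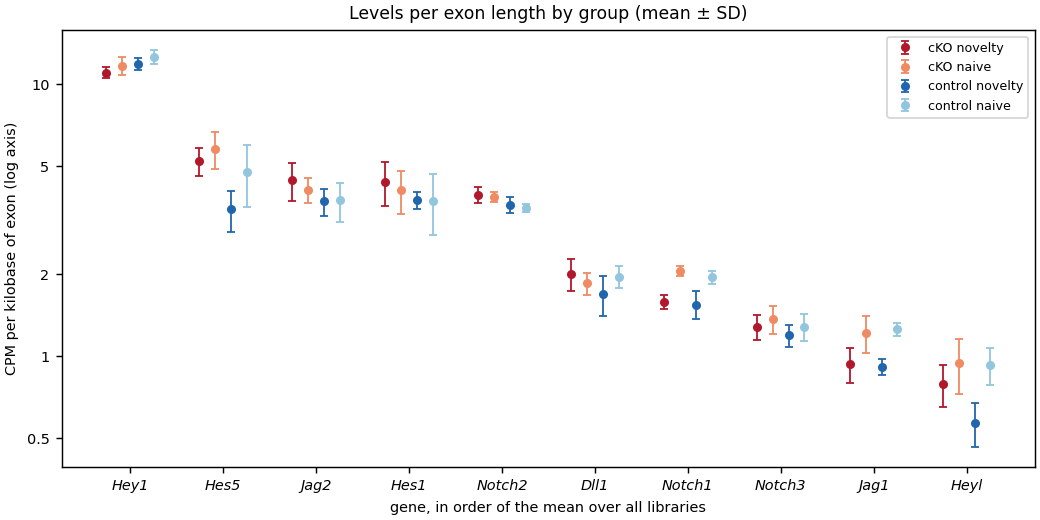
Level of each member per kilobase of exon (CPM per kb, log axis), as mean ± SD for the 7 cKO novelty, 6 cKO naive, 5 control novelty and 6 control naive libraries, in order of the mean over all libraries. Hey1 stands above the rest at 11.8 CPM per kb, and the novelty mean lies below the naive mean in both genotypes for 6 members, Notch1, Notch3, Jag1, Hes5, Hey1 and Heyl.

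Promoter sequences are shown for 3 of the members that passed in a comparison below and had a window. Hes5 differed most between genotypes after novelty, and Jag1 and Notch1 were lower after novelty. Each is the RefSeq window on GRCm38.p6 from 250 bases before to 50 bases after an annotated start, written 5′ to 3′ on the gene's strand. Of the 10 members 7 matched the table. The target genes Hes1, Hey1 and Heyl had no window, so Heyl, also lower after novelty in control mice, could not be shown. Notch2, which passed in the average of cKO over control, had a window that is not printed. Capitals mark the letters TGGGAA, the core of the sequence that RBPJ binds, searched on both strands, where TTCCCA is the opposite strand. Hes5, on chromosome 4 from 154960923 to 154962371 on the plus strand, has its window at chr4:154960673-154960972.
Hes5: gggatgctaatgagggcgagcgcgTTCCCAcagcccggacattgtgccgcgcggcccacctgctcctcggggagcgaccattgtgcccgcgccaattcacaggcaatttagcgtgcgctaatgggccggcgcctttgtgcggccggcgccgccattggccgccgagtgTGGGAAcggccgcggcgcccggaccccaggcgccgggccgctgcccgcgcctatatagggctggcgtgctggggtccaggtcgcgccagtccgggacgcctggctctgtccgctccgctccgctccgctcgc
Jag1 lies on chromosome 2 from 137081456 to 137116644 on the minus strand, with its window at chr2:137116471-137116770.
Jag1: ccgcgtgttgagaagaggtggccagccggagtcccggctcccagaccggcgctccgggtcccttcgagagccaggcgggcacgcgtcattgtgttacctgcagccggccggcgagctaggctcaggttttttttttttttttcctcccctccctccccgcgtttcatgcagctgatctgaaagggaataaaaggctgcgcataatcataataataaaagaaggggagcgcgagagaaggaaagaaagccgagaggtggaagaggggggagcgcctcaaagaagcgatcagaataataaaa
Notch1 lies on chromosome 2 from 26457903 to 26516663 on the minus strand, and its window at chr2:26503773-26504072 is around a start inside the annotated gene.
Notch1: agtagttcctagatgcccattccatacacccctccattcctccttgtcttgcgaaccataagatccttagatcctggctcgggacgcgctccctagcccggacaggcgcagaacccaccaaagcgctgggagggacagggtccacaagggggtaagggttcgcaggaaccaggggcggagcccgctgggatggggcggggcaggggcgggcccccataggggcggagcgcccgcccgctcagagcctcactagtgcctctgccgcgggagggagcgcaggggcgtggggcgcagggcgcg
The Hes5 window holds TGGGAA on the gene's strand 82 bases before the start and its complement 226 bases before it. The other 7 of the 8 member windows, Dll1 having 2, hold no match. Of all 32851 promoter windows in the table, 25.6% hold the letters. The E-box letters CACGTG are in 0 of the 8 member windows and in 7.15% of all windows, and the motifs do not overlap in these windows. A match of letters is a description and does not show binding.

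The first comparison asked how 15 min of novelty was followed by changes in control mice. Jag1, Notch1 and Heyl fell, so that a ligand, a receptor and a target of the pathway were lower in novelty-exposed controls. In edgeR's quasi-likelihood test with Benjamini-Hochberg adjustment, these 3 of the 10 members passed as lower and 0 as higher, where 0.199% of the 16100 genes tested passed as lower, 1.02% as higher and 1.22% in either direction. The log2 fold change was below 0 for 9 of 10 members, with a median of -0.17 over members and -0.014 over all genes tested. In bulk tissue, fewer cells of a type and less RNA per cell cannot be told apart.

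Among the ligand genes, Jag1 encodes the Jagged ligand that is prominent in vessel walls and stem cell niches. It stood at 5.59, 5.39, 5.63, 5.30 and 4.73 CPM in control novelty libraries, against 6.78 to 7.93 CPM in control naive libraries with a median of 7.34. All 5 novelty libraries lay below all naive libraries. The level after novelty was 72.8% of the naive level (log2 fold change -0.46, SE 0.083, adjusted p = 0.00971), and the call held in 11 of 11 fits that left out 1 library. Within title numbers 1 to 3 and 4 and above the log2 fold change of Jag1 was -0.47 and -0.48. Dll1, a Delta-like ligand, stood at 8.11, 6.99, 5.13, 7.91 and 7.45 CPM after novelty, against 7.23 to 9.32 CPM in naive libraries, with overlapping groups (log2 fold change -0.22, SE 0.11, adjusted p = 0.519), and its value was -0.13 without control novelty library 3. Jag2, the second Jagged ligand, differed by a log2 fold change of -0.033 (SE 0.11, adjusted p = 0.971).

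Notch1, the receptor most studied in neurons and stem cells, stood at 24.4, 21.2, 21.3, 24.7 and 18.4 CPM in control novelty libraries. The control naive libraries ran from 25.6 to 29.4 CPM with a median of 28.2 CPM, above each novelty library. The Notch1 level after novelty was 79.2% of the naive level (log2 fold change -0.35, SE 0.075, adjusted p = 0.0344). This call was close to its threshold and held in 4 of 11 fits that left out 1 library. It was lost without control naive library 3, 4, 5 or 6 (adjusted p = 0.0687, 0.0760, 0.0844 and 0.0858) and without control novelty library 2, 3 or 5 (adjusted p = 0.117, 0.0821 and 0.0876), with log2 fold changes of -0.34 to -0.29. Its log2 fold change was -0.27 within title numbers 1 to 3 and -0.42 within 4 and above. Neither of the other receptor genes passed. Notch2 had a log2 fold change of 0.039 (SE 0.054) and Notch3, the receptor of vascular smooth muscle and pericytes, one of -0.13 (SE 0.093).

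Heyl, a Hey-family target gene known from mural cells, had the widest difference among the members. It stood at 3.31, 2.28, 3.25, 3.34 and 2.36 CPM in control novelty libraries, against 3.92 to 5.85 CPM in control naive libraries with a median of 4.65. The groups did not overlap, and the level after novelty was 61.4% of the naive level (log2 fold change -0.73, SE 0.15, adjusted p = 0.0201). The call held in 8 of 11 fits that left out 1 library and was lost without control naive library 5 (-0.69, adjusted p = 0.0575), control novelty library 2 (-0.63, adjusted p = 0.0866) or control novelty library 5 (-0.67, adjusted p = 0.0688). Within title numbers 1 to 3 and 4 and above, the Heyl log2 fold change was -0.68 and -0.79.

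Hes5, a Hes-family repressor of stem cells and astrocytes, stood at 5.39, 4.45, 5.07, 5.30 and 3.43 CPM after novelty. Control naive libraries ran from 3.92 to 8.97 CPM with a median of 6.49, and the groups overlap because control naive library 2, the shallowest, is low. The log2 fold change was -0.49 (SE 0.17, adjusted p = 0.243), and it passed in 0 of 11 fits that left out 1 library, with values from -0.58 (SE 0.14, adjusted p = 0.0614, without that library) to -0.37. It was -0.13 within title numbers 1 to 3 and -0.84 within 4 and above, where Hes5 passed (adjusted p = 0.0448) and Notch1, Jag1 and Heyl did not (adjusted p = 0.0765, 0.142 and 0.0694). Hes1 and Hey1, the other repressor genes, had log2 fold changes of -0.010 (SE 0.15) and -0.090 (SE 0.055), and neither passed.

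Cell type markers were read beside these values. Of the 12 mural markers 0 passed in control mice, and their summed level was 225 to 243 CPM in control novelty libraries against 229.5 to 257 CPM in control naive libraries. Of the 12 endothelial markers 0 passed as well, with sums of 252 to 294 CPM after novelty and 252 to 307 CPM in naive libraries. Of the 12 astrocyte markers 1 passed, the transcription factor gene Sox9, which was lower, and the astrocyte sums were 6584 to 7062 CPM after novelty and 6007 to 7543 CPM in naive libraries. Of 7 neural progenitor markers tested, Sox2, which encodes a stem cell transcription factor, was lower, and the summed level of the 8 listed was 82.0 to 89.8 CPM after novelty against 92.2 to 103 CPM in naive libraries, with no overlap. Sox2 itself and Dcx are the largest parts of that sum, with medians of 29.5 and 28.9 CPM over all libraries. The part of these markers in the member results was not tested.

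**Figure D2:**
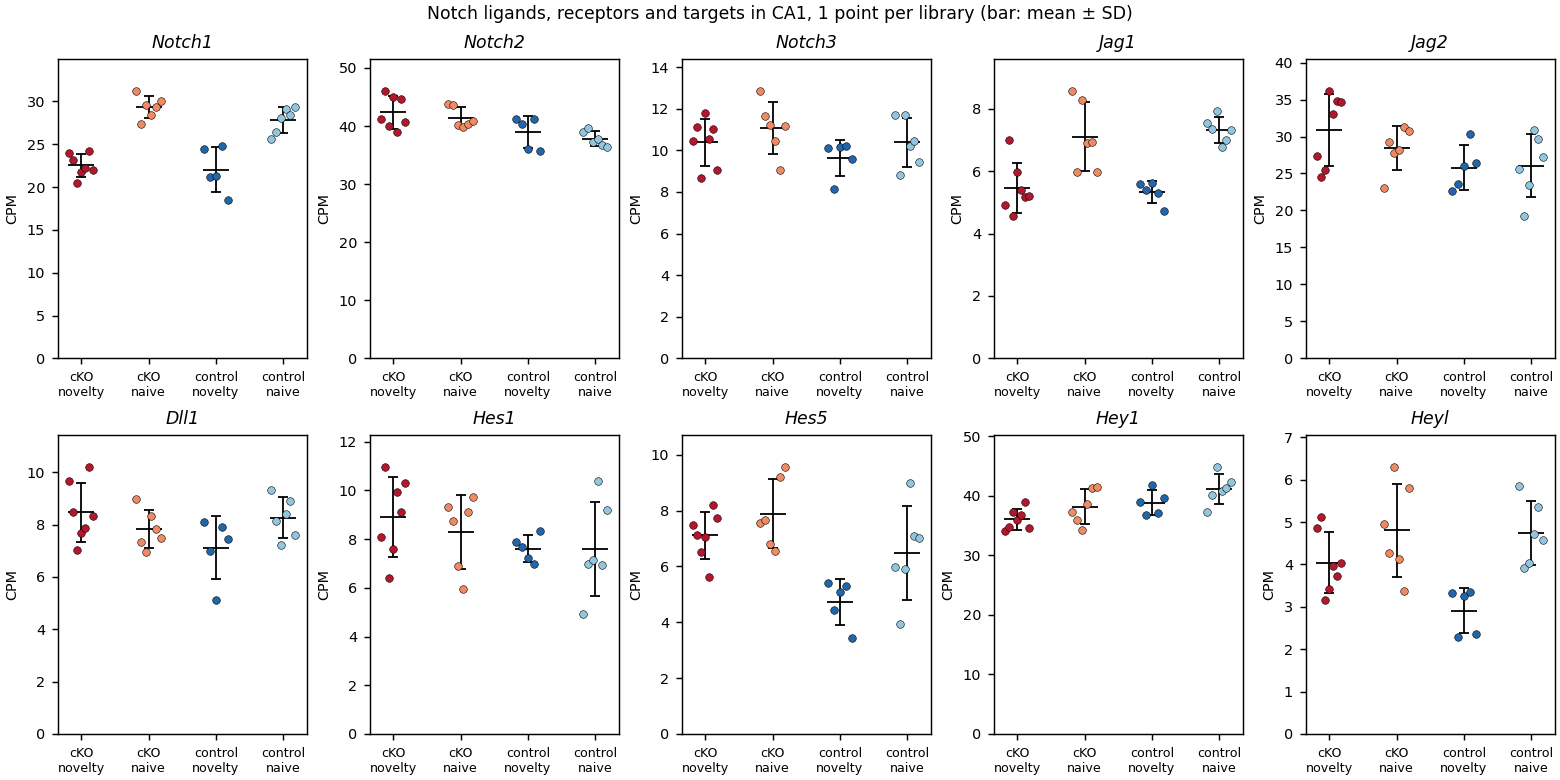
CPM of each member in every library (1 point per library, with mean ± SD) for the 7 cKO novelty, 6 cKO naive, 5 control novelty and 6 control naive libraries. Notch1 is lower after novelty in both genotypes with no overlap, Jag1 and Heyl are lower in control novelty than in control naive libraries with no overlap, and Hes5 is higher in every cKO novelty library than in any control novelty library.

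In cKO mice the same exposure was followed by a lower Notch1 level and no other member call. This 1 of 10 members passed as lower and 0 as higher, where 0.484% of the 16339 genes tested passed as lower, 1.92% as higher and 2.41% in either direction. Over all genes 314 passed as higher and 79 as lower, and with upper-quartile scaling 240 and 118. Members had a median log2 fold change of -0.086, against -0.0097 over all genes tested.

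Notch1 ran from 20.4 to 24.2 CPM in cKO novelty libraries with a median of 22.2, against 27.4 to 31.2 CPM in cKO naive libraries with a median of 29.4. All 7 novelty libraries lay below all naive ones. The level after novelty was 76.8% of the naive level (log2 fold change -0.38, SE 0.049, adjusted p = 0.000379), and the call held in 13 of 13 fits that left out 1 library. Its log2 fold change was -0.38 within title numbers 1 to 3 and -0.38 within 4 and above.

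Jag1 ran from 4.56 to 6.99 CPM in cKO novelty libraries with a median of 5.22, against 5.97 to 8.56 CPM in cKO naive libraries with a median of 6.92. Of the 7 novelty libraries 6 lay below all naive ones, and 1 fell among them. The log2 fold change was -0.38 (SE 0.11), with an adjusted p of 0.0930 in edgeR's test and 0.0418 in DESeq2, and the authors' deposited table gives Jag1 in this comparison an adjusted p of 0.0352. The deposited DESeq2 values were below edgeR's for other members too. They were 0.00124 against 0.0344 for Notch1 after novelty in control, and 0.0549 against 0.156 for Notch2 in naive cKO over control. Heyl ran from 3.16 to 5.11 CPM in cKO novelty libraries against 3.38 to 6.31 CPM in cKO naive libraries, with overlapping groups (log2 fold change -0.26, SE 0.15, adjusted p = 0.478). Hes5 ran from 5.63 to 8.21 CPM after novelty against 6.55 to 9.57 CPM in naive cKO libraries, again with overlap (log2 fold change -0.15, SE 0.11, adjusted p = 0.587). The log2 fold changes of Notch2, Jag2, Dll1 and Hes1 were above 0, from 0.031 to 0.13, and those of Notch3 and Hey1 were -0.090 and -0.081. None of these 6 passed. Of the 12 astrocyte markers Gjb6, a gap junction gene, was higher, and 0 of 12 mural, 0 of 12 endothelial and 0 of 7 progenitor markers passed in cKO mice. Progenitor sums were 84.3 to 106 CPM in cKO novelty libraries and 88.4 to 105 CPM in cKO naive libraries.

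Averaged over both genotypes, novelty was followed by lower Notch1, Jag1 and Heyl. These 3 of 10 members passed as lower and 0 as higher, where 2.13% of 16744 genes passed as lower, 4.43% as higher and 6.55% in either direction. Over all genes 741 were higher and 356 lower, and with upper-quartile scaling 589 and 504. The log2 fold change was -0.36 (SE 0.043, adjusted p = 1.84e-06) for Notch1, -0.42 (SE 0.071, adjusted p = 0.000270) for Jag1 and -0.49 (SE 0.11, adjusted p = 0.00427) for Heyl in edgeR's test, and each passed in 24 of 24 fits that left out 1 library. Within title numbers 1 to 3 and 4 and above, these changes were -0.32 and -0.40 for Notch1, -0.47 and -0.38 for Jag1, and -0.45 and -0.51 for Heyl. Hes5 had a log2 fold change of -0.32 (SE 0.10, adjusted p = 0.0586), and passed in 2 of 24 fits that left out 1 library, with values from -0.36 (adjusted p = 0.0116, without the shallowest library) to -0.26. Its values within title numbers differed, at -0.090 for 1 to 3 and -0.54 for 4 and above. Among markers in this average, 1 of 12 mural markers (Pdgfrb), 1 of 7 progenitor markers (Sox2) and 1 of 12 astrocyte markers (Sox9) were lower, while Gjb6 of the astrocyte list was higher. Of the 12 endothelial markers Cldn5 was lower and Ly6c1 higher. Their part in the member results was not tested.

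Whether novelty acted differently by genotype was tested as an interaction, the novelty effect in cKO minus that in control. Among all 16744 genes 0 passed in edgeR's quasi-likelihood test (0% called), with 688 at an unadjusted p under 0.05, and 0 passed in DESeq2, with 792 at an unadjusted p under 0.05. Of the members 2 had an unadjusted p under 0.05, as had 4.11% of all genes. The interaction was 0.47 on the log2 scale for Heyl (SE 0.22, unadjusted p = 0.0411) and 0.33 for Dll1 (SE 0.15, unadjusted p = 0.0328), with adjusted p = 1 for both. For Notch1 it was -0.040 (SE 0.086) and for Jag1 0.073 (SE 0.14). For Hes5, which passed below between genotypes after novelty and not in naive mice, it was 0.33 (SE 0.20, unadjusted p = 0.114). A difference between genotypes in the novelty response of these genes was therefore not detected, including for Heyl, which passed in control mice and did not pass in cKO mice.

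The genotypes were compared first in naive mice, which share the control naive and cKO naive libraries with the novelty comparisons above. No member passed: 0 of 10 in edgeR's quasi-likelihood test and 0 in DESeq2, with 1 at an unadjusted p under 0.05, which 13.6% of all genes tested had as well. After adjustment 0.306% of 16360 genes passed as higher, 0.495% as lower and 0.801% in either direction. The member nearest to a call was Notch2, a receptor of glia and stem cells. It ran from 39.8 to 43.8 CPM in cKO naive libraries with a median of 40.6, against 36.3 to 39.7 CPM in control naive libraries with a median of 37.5. The groups did not overlap, but the difference did not pass after adjustment over all genes tested (log2 fold change 0.14, SE 0.042, adjusted p = 0.156). Hes5 ran from 6.55 to 9.57 CPM in cKO naive libraries against 3.92 to 8.97 CPM in control naive libraries (log2 fold change 0.26, SE 0.15, adjusted p = 0.492). The groups overlap, and without the shallowest library the value was 0.17 (SE 0.13). The other 8 members had log2 fold changes from -0.11 for Hey1 to 0.12 for Hes1.

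After novelty the cKO libraries had more Hes5 than the control libraries. This 1 of 10 members passed as higher and 0 as lower, where 2.13% of 16188 genes passed as higher, 2.4% as lower and 4.53% in either direction. The log2 fold change was above 0 for 9 of 10 members, with a median of 0.18 over members and 0.0085 over all genes tested. An unadjusted p under 0.05 was found for 6 members, of which Hey1 was below 0, and for 20.7% of all genes tested. This comparison shares its libraries with both novelty comparisons, so its values and theirs are given side by side and are not independent.

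Hes5 ran from 5.63 to 8.21 CPM in cKO novelty libraries with a median of 7.14, against 5.39, 4.45, 5.07, 5.30 and 3.43 CPM in control novelty libraries. All 7 cKO libraries lay above all 5 control libraries. The level in cKO was 150.5% of the control level (log2 fold change 0.59, SE 0.12, adjusted p = 0.00964 in edgeR's test), and the call held in 12 of 12 fits that left out 1 library. Its log2 fold change was 0.52 within title numbers 1 to 3 and 0.73 within 4 and above. Its promoter window is the one printed above that holds both TGGGAA matches, letters found in 25.6% of all promoter windows. A link between these letters and the Hes5 difference was not tested.

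Heyl ran from 3.16 to 5.11 CPM in cKO novelty libraries with a median of 3.95, against 3.31, 2.28, 3.25, 3.34 and 2.36 CPM in control novelty libraries. Of the 7 cKO libraries 6 lay above all control libraries. The log2 fold change was 0.49 (SE 0.15), with an adjusted p of 0.0707 in edgeR's test and 0.0448 in DESeq2, and the authors' deposited table gives Heyl an adjusted p of 0.0333 here. Hes1 had a log2 fold change of 0.23 (SE 0.12, adjusted p = 0.280) and Hey1 one of -0.10 (SE 0.047, adjusted p = 0.228), so that Hey1 alone among the members lay below 0.

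Among the ligands, Jag2 ran from 24.5 to 36.1 CPM in cKO novelty libraries, against 22.7, 23.6, 26.0, 30.3 and 26.4 CPM in control novelty libraries (log2 fold change 0.27, SE 0.11, adjusted p = 0.164). Jag2 went with the title numbers, at 24.5 to 27.4 CPM in cKO novelty libraries 1 to 3 and 33.1 to 36.1 CPM in 4 to 7. Control novelty libraries 4 and 5 were also above 1 to 3. The numbers run to 7 in cKO and to 5 in control, so genotype and number are not balanced here. Dll1 ran from 7.03 to 10.2 CPM in cKO novelty libraries, against 5.13 to 8.11 CPM in control novelty libraries (log2 fold change 0.26, SE 0.12, adjusted p = 0.224). Both overlap between genotypes and neither passed. Jag1, with 5.46 ± 0.80 CPM in cKO and 5.33 ± 0.36 CPM in control novelty libraries (SD, n = 7 and 5), had a log2 fold change of 0.033 (SE 0.10). The receptors had log2 fold changes of 0.038 for Notch1 (SE 0.071), 0.12 for Notch2 (SE 0.056) and 0.12 for Notch3 (SE 0.089), and 0 of the 3 passed.

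Beside these values, 3 of 8 markers of CA1 pyramidal neurons were lower in cKO novelty libraries (Wfs1, Camk2a and Itpka), and their sums were 4384 to 5181 CPM in cKO against 5114 to 6614 CPM in control novelty libraries. Of the 12 astrocyte markers S100b was lower, with sums of 5691 to 6969 CPM in cKO and 6584 to 7062 CPM in control novelty libraries. Of the 7 neural progenitor markers tested 0 passed, with sums of 84.3 to 106 CPM in cKO and 82.0 to 89.8 CPM in control novelty libraries. Of the 12 endothelial markers 1 passed, Ly6c1, which was lower, with sums of 220.1 to 292 CPM in cKO and 252 to 294 CPM in control novelty libraries. Of the 12 mural markers 0 passed, with sums of 185 to 245 CPM in cKO and 225 to 243 CPM in control novelty libraries. Of 8 interneuron markers 2 were lower (Pvalb and Cck), with sums of 1053 to 1219 CPM in cKO and 1160 to 1303 CPM in control novelty libraries. Of 10 oligodendrocyte and 6 dentate granule markers 0 passed, with median log2 fold changes of -0.35 and -0.43, and the oligodendrocyte sums had a median of 4076 CPM in cKO and 5615 CPM in control novelty libraries. The part of these lists in the Hes5 difference was not tested.

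Averaged over both exposures, cKO mice had higher Notch2 and Hes5. These 2 of 10 members passed as higher and 0 as lower, where 5.72% of 16744 genes passed as higher, 6.32% as lower and 12% in either direction. Over all genes 958 were higher and 1059 lower, and with upper-quartile scaling 1190 and 843, so the balance of directions depends on the scaling, while Notch2 and Hes5 were called as higher under both. For Hes5 the log2 fold change was 0.43 (SE 0.10, adjusted p = 0.00620) and for Notch2 it was 0.13 (SE 0.034, adjusted p = 0.0153), and each passed in 24 of 24 fits that left out 1 library. Within title numbers 1 to 3 and 4 and above the values were 0.48 and 0.43 for Hes5 and 0.13 and 0.13 for Notch2. Hey1 had a log2 fold change of -0.11 (SE 0.037, adjusted p = 0.0542), and it was -0.17 within title numbers 1 to 3 and -0.053 within 4 and above. Jag2 had one of 0.19 (SE 0.078, adjusted p = 0.108) and Heyl one of 0.25 (SE 0.11, adjusted p = 0.136). In the same comparison 8 of 10 oligodendrocyte markers, 4 of 8 interneuron markers, 3 of 8 CA1 markers and 3 of 6 dentate granule markers were lower, and 1 each of 12 astrocyte (S100b), 12 endothelial (Ly6c1) and 12 mural markers (Rgs5) was lower, while 1 of 7 progenitor markers (Dcx) was higher. Their part in the Notch2 and Hes5 differences was not tested.

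The other genes of the pathway were taken from a list of 57, ordered by step: other ligands, the receptor Notch4, glycosylation, proteases, ubiquitination and endocytosis, the nuclear complex, and further targets. After novelty 1 of 55 tested passed in control mice, where 1.22% of all genes passed, and 1 of 54 in cKO mice, where 2.41% did, both times Spen, which was higher. In cKO against control, 1 of 55 passed in naive mice, where 0.801% of all genes did, and 3 of 55 after novelty, where 4.53% did, all lower. These counts are close to the share over all genes. The medians over the list were -0.0023 and 0.013 after novelty in control and in cKO, and -0.023 and 0.032 for cKO in naive mice and after novelty.

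Spen encodes a corepressor that binds RBPJ when the Notch domain is absent, and also acts outside the pathway. It ran from 90.1 to 107 CPM in control novelty libraries against 63.0 to 85.5 CPM in control naive libraries, with no overlap (log2 fold change 0.33, SE 0.069, adjusted p = 0.0276), and the call held in 6 of 11 fits that left out 1 library. In cKO mice it ran from 92.7 to 111 CPM after novelty against 79.2 to 94.5 CPM in naive libraries (log2 fold change 0.22, SE 0.054, adjusted p = 0.0426), where 5 of 13 such fits kept the call and upper-quartile scaling ended it. Averaged over genotypes, Spen was higher by 0.28 on the log2 scale (SE 0.045, adjusted p = 0.000155) and passed in 24 of 24 fits.

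In the same average 4 of the 55 genes were higher and 1 lower, where 4.43% of all genes were higher and 2.13% lower. Beside Spen, these were Id4, listed among further targets and encoding a protein that blocks differentiation factors (0.19, SE 0.044, adjusted p = 0.00705), Aph1b, a subunit of gamma-secretase (0.18, SE 0.045, adjusted p = 0.0136), and Adam17, a membrane protease (0.14, SE 0.041, adjusted p = 0.0465), which kept its call in 8 of 24 fits. Whether the listed further targets respond to Notch in this tissue was not tested. The gene that fell was Dll4, the Delta-like ligand of endothelium, with 1.94 ± 0.58 CPM in cKO novelty and 2.58 ± 0.56 CPM in cKO naive libraries, and 1.76 ± 0.21 CPM in control novelty and 2.37 ± 0.33 CPM in control naive libraries (SD). Its log2 fold change was -0.43 (SE 0.12, adjusted p = 0.0323), it rests on 20 to 67 reads per library, and it kept its call in 13 of 24 fits.

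Fbxw7, the ubiquitin ligase subunit that marks the Notch intracellular domain and other proteins for breakdown, was lower in cKO at both exposures. It ran from 153 to 195 CPM in cKO novelty against 194 to 236 CPM in control novelty libraries (log2 fold change -0.30, SE 0.061, adjusted p = 0.0100), and from 165 to 209 CPM in cKO naive against 221 to 244 CPM in control naive libraries (-0.31, SE 0.056, adjusted p = 0.0208). The naive groups did not overlap. The call held in 12 of 12 fits that left out 1 library after novelty and in 10 of 12 in naive mice. After novelty Aph1b was lower in cKO as well (-0.28, SE 0.064, adjusted p = 0.0214), as was Id2, a gene related to Id4 and listed with it (-0.24, SE 0.061, adjusted p = 0.0359), which kept its call in 4 of 12 fits.

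Averaged over exposures, 2 of the 55 genes were higher in cKO and 4 lower, with a list median of 0.0067, where 5.72% of all genes were higher and 6.32% lower. The list is thus near the share over all genes. The higher ones were both in the list of further targets and feedback genes. Hes6, a Hes-family gene known to oppose Hes1, averaged 11.3 ± 1.11 CPM in cKO novelty and 9.71 ± 0.41 CPM in control novelty libraries, and 12.9 ± 1.17 CPM in cKO naive and 10.3 ± 1.48 CPM in control naive libraries (SD), with a log2 fold change of 0.27 (SE 0.060, adjusted p = 0.00410). Nrarp, which encodes a feedback inhibitor of the Notch complex, averaged 18.5 ± 2.33 CPM in cKO novelty and 15.5 ± 0.74 CPM in control novelty libraries, and 19.3 ± 1.74 CPM in cKO naive and 16.3 ± 1.69 CPM in control naive libraries (SD), with a log2 fold change of 0.25 (SE 0.057, adjusted p = 0.00433). The lower ones were Fbxw7 (-0.31), Aph1b (-0.23), Id2 (-0.23) and Dtx4, a Deltex-family ubiquitin ligase (-0.11, SE 0.034, adjusted p = 0.0425), which kept its call in 10 of 24 fits. With upper-quartile scaling 5 genes of the list were higher and 3 lower.

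Rbpj, Adam10, Lfng and Notch4, further parts of the pathway, did not pass in either average. Rbpj, at 21.3 ± 0.84 CPM in cKO novelty and 21.6 ± 1.83 CPM in control novelty libraries (SD), had log2 fold changes of -0.038 for cKO (SE 0.042) and 0.084 for novelty (SE 0.042). Adam10 had -0.066 for cKO and -0.025 for novelty (SE 0.030 for each). Lfng, a glycosyltransferase that modifies the receptors, had 0.14 and 0.15 (SE 0.090 for each). Notch4, the receptor of endothelium, had -0.093 and 0.19 (SE 0.078 for each).

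**Figure D3:**
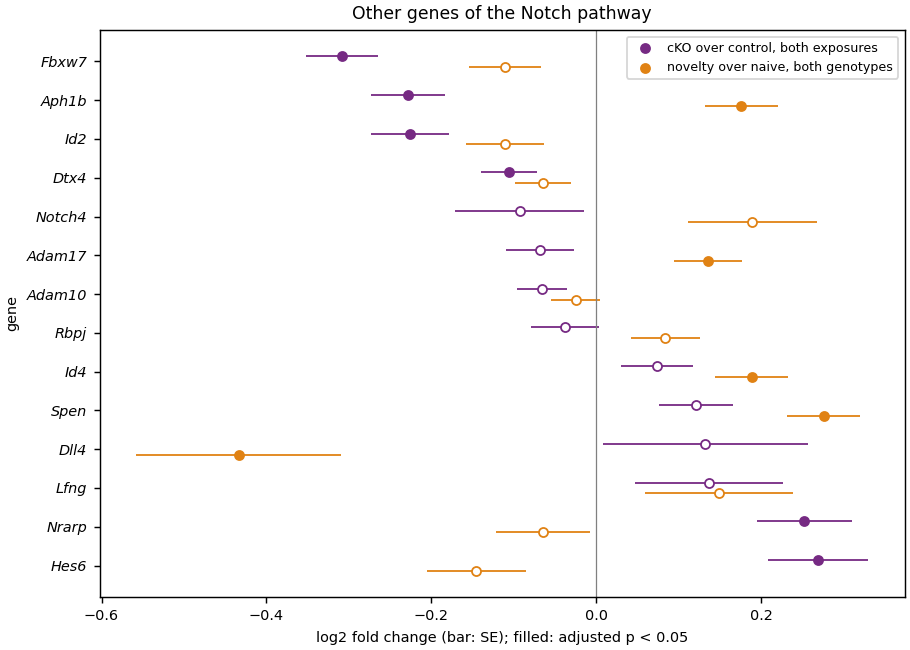
Log2 fold change with SE (bars) of 14 other pathway genes, for cKO over control averaged over exposures and for novelty over naive averaged over genotypes; filled points have an adjusted p below 0.05 in edgeR's quasi-likelihood test. Fbxw7, Aph1b, Id2 and Dtx4 are lower and Hes6 and Nrarp higher in cKO, while Spen, Id4, Aph1b and Adam17 are higher and Dll4 lower after novelty.

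To see how members vary together among libraries of a group, correlations of log2 CPM were taken over the 24 libraries with group means removed. Of the 45 pairs of members 35 had a positive Pearson r, with a median of 0.147 and a range of -0.387 to 0.601, and 0 pairs had an adjusted p below 0.05 for r (permutation test, two-sided, 100000 resamples, adjusted over 45 pairs). The highest pair was Notch1 with Hes5, at r = 0.601 (permutation p = 0.00191, adjusted p = 0.0860) and Spearman rho = 0.648 (permutation p = 0.00074, adjusted p = 0.0333). Without the 2 libraries farthest from the median of Notch1, r was 0.508, and it was 0.448 within title numbers 1 to 3 and 0.712 within 4 and above. Jag2 with Hes5 followed at r = 0.523 and rho = 0.545 (permutation p = 0.00838 and 0.00662, adjusted p = 0.138 and 0.123), then Notch3 with Heyl at r = 0.520 and rho = 0.468 (permutation p = 0.00918 and 0.0223, adjusted p = 0.138 and 0.144). The lowest was Hey1 with Heyl, at r = -0.387. Libraries share depth and tissue makeup, which such values include. The permutations moved libraries freely across groups and did not allow for the group means removed, so these p-values are lower than they should be.

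Members were also set beside the mean log2 CPM of marker lists in the same way, in 40 pairs chosen after their values could be seen. The adjusted p-values of these permutation tests cover the 40 pairs only and do not allow for that choice. They do not allow for the group means removed either, and are lower than they should be. Notch2 went with the astrocyte markers at r = 0.624 and rho = 0.603 (permutation p = 0.0009 and 0.00216, adjusted p = 0.0360 and 0.0432), with r = 0.581 without the 2 libraries farthest from the median, 0.657 within title numbers 1 to 3 and 0.574 within 4 and above. Jag2 went against the endothelial markers at r = -0.587 and rho = -0.615 (permutation p = 0.00278 and 0.00212, adjusted p = 0.0556 and 0.0432), with r = -0.505 without the 2 farthest libraries. The r of this pair was -0.550 within title numbers 1 to 3 and -0.0822 within 4 and above, so it was weak within the higher-numbered libraries. Group means were removed but not those of the number sets, between which Jag2 differed. In cKO novelty libraries Jag2 ran from 24.5 to 27.4 CPM in numbers 1 to 3 and from 33.1 to 36.1 CPM in 4 and above. The r over all libraries includes that difference.

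For each member that passed in a comparison, the 3 genes with the highest Pearson r over the 24 libraries, group means kept, were taken from 11977 genes with a mean count of at least 50. Being chosen as the highest, they carry no test, and since the members that passed differ between groups, r was also taken with group means removed. Nearest to Notch1 were Msl3l2 (r = 0.856), Tab1 (0.821) and Nrde2 (0.814), which stood at 0.521, 0.354 and 0.481 with group means removed. Nearest to Hes5 were Zfp362 (0.853), Mum1 (0.815) and Wnt7b (0.813), which encodes a Wnt ligand. Nearest to Heyl were the zinc finger genes Zkscan2 (0.843), Zfp941 (0.833) and Zfp507 (0.776). Nearest to Jag1 were Klf7 (0.787), Slc6a6 (0.781) and Ccdc14 (0.775), at 0.333, 0.493 and 0.559 with group means removed. Nearest to Notch2 were P2rx5 (0.788), Gss (0.778) and Vwa3a (0.777). For the genes nearest to Hes5, Heyl and Notch2, r with group means removed was 0.583 to 0.753.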

How the data were processed

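Polyadenylated RNA of 24 CA1 libraries was sequenced after TruSeq RNA library preparation, per the labels' protocols. Reads from a gene and from any overlapping antisense RNA cannot be separated, since the kit keeps no strand. The protocols name paired-end and single-end kits without saying which library had which. The authors deposited 1 table of raw counts per library, whole reads per Ensembl gene, and the submitters' processing notes name STAR 2.3.0, HTSeq, DESeq2 and GRCm38.p2. Reads without a gene (7.584 to 10.36% of a table) and without a unique position (14.82 to 17.97%) were left out of library sizes. The authors also deposited 4 comparison tables, which per the file headers hold a signal (mean normalised counts per group), log2 fold changes with standard errors, and p-values. These gave gene names and coordinates, and the values credited to them in the text.

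Differences in these counts were tested by edgeR's quasi-likelihood method (version 4.0.16, under R 4.3.3, with TMM, filterByExpr at a minimum count of 10, robust fit, Benjamini-Hochberg adjustment over all genes tested). A gene passed at an adjusted p below 0.05. The 4 pairwise comparisons used their own libraries, and 1 fit over all 24 libraries gave the 2 averages and the interaction, 7 comparisons in all. The fits were tested on simulated data. Levels are CPM after TMM, means are given with SD over libraries, and fold changes with SE. Exon lengths are unions of exons in GENCODE M21. Correlations used log2 CPM with a prior count of 2.

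Members and lists were chosen with earlier results of these data known. Named are the 10 members, the genes of the 57-gene pathway list that passed or are core parts (1 core gene is not reported here), and for each member that passed the 3 genes most like it. A few single markers were named after their values were seen. Alternatives were other scalings, DESeq2 1.42.0, no filter, a replicate block, library numbers as a term or as a split, 1 fit for all libraries and leaving out each library. Library numbers do not pair the samples, since 3 of 22 same-numbered pairs had correlated deviations (r over 0.1).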

Additional observations from a re-analysis of the deposited data

Results flagged for a closer look

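Among 140 sets of values, 1 for each group of libraries, for the 10 members, 14 other pathway genes and 11 marker lists, 8 had a library far from the others of its group by Dixon's test. Chance alone flags about 1 in 20. None of the 40 sets of the members was among them. Dll4 was lowest in cKO naive library 5, at 1.44 CPM, with the next library at 2.68 CPM. Hes6 was lowest in cKO novelty library 2, at 9.02 CPM, with the next at 11.1 CPM. Nrarp was lowest in control novelty library 3, at 14.2 CPM, with the next at 15.7 CPM. The summed oligodendrocyte markers were highest in cKO novelty library 4 (6386 CPM, next 4220.1 CPM) and in cKO naive library 4 (5509 CPM, next 4493 CPM). The summed CA1 pyramidal markers were lowest in control naive library 4, at 5020.2 CPM, with the next at 5506 CPM. The summed choroid plexus and ependyma markers were highest in cKO naive library 1 (44.3 CPM, next 31.4 CPM) and in control naive library 4 (119 CPM, next 32.8 CPM).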

How the results depend on the processing

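Of 1800 member values recomputed under other settings, 1671 kept their direction and their side of the threshold, 28 no longer passed, 19 passed newly and 82 changed sign, the last all members that passed under neither setting. None of the 40 group levels moved by more than 1 SD with DESeq2 size factors. The count of members called after novelty in control (3) was 0 with the replicate block (adjusted p = 0.127 for Notch1, 0.0654 for Jag1 and 0.0647 for Heyl, in edgeR), 0 within title numbers 1 to 3 and 1 within 4 and above. That 1 is Hes5, which is not among the 3. After novelty in cKO (1) it was 2 in DESeq2, 0 within numbers 1 to 3 and 2 with all 24 libraries in 1 fit. For cKO after novelty (1) it was 2 in DESeq2, 0 within numbers 1 to 3 and 0 within 4 and above. For the novelty average (3) it was 1 within numbers 1 to 3, and for the cKO average (2) it was 4 with the number split as a term, 1 within numbers 1 to 3 and 0 within 4 and above. The splits of the averages were added after seeing the data. The splits hold fewer samples; the cause of the other changes was not tested. Leaving out 1 library gave 1 to 3, 1 to 2, 0 to 0 and 1 to 2 members in the 4 pairwise comparisons in the order of the text (1 without control naive library 5 or control novelty library 2 or 5, and 2 without cKO novelty library 2 or 3), 3 to 4 and 2 to 3 in the novelty and cKO averages, and 0 to 0 for the interaction. With group means kept, 8 pairs of members passed, against 0 with group means removed; a prior count of 0.5 gave 0.

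Counts over all genes moved by more than 1.5 times in places. After novelty in control, 196 genes passed, against 373 in DESeq2, 97 with the replicate block, 25 within numbers 1 to 3 and 305 with all 24 libraries in 1 fit. After novelty in cKO it was 393, against 639, 207, 15, and 70 within numbers 4 and above. For cKO in naive it was 131, against 457 in DESeq2, 70 with the block, 3 and 5 within the splits and 322 in 1 fit. For cKO after novelty it was 733, against 1155, 398, 17 and 121. For the averages it was 1097 (novelty), against 206 and 369 within the splits, and 2017 (cKO), against 402 and 405. Leaving out 1 library also moved the counts over 1.5 times. After novelty in control it gave 128 without control naive library 6, and 113 and 116 without control novelty libraries 2 and 5. After novelty in cKO it gave 238 without cKO naive library 2. For cKO in naive it gave 40 to 80 without control naive library 4, 5 or 6 or cKO naive library 1, 2, 5 or 6, and for cKO after novelty 324 to 484 without control novelty library 2, 3 or 5 or cKO novelty library 5 or 7. The shares over all genes rest on these counts. Of 22 pairs of same-numbered libraries in different groups, 3 correlated best with their own number (r over the pairs from -0.128 to 0.279), so the block joins libraries that share only a number. It moved no count of members called other than the one above by over 1.5 times.

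The sign changes, as log2 fold changes, were as follows. After novelty in control, Jag2 was 0.0055 with the replicate block, 0.011 with the number split as a term and 0.064 within numbers 1 to 3, and Hes1 was 0.0014 in DESeq2, 0.0018 without the filter on low counts, 0.088 with the block, 0.045 with that term and 0.25 within numbers 1 to 3. After novelty in cKO, Notch2 was -0.0041 and Jag2 -0.045 within numbers 1 to 3, and Notch3 0.057 within 4 and above. For cKO in naive, Hes1 was -0.094 and Heyl -0.13 within 4 and above, and for cKO after novelty Jag1 was -0.019 within 1 to 3. In the novelty average, Notch3 was 0.019 and Hes1 -0.026 within 4 and above. In the cKO average, Jag1 was 0.0053 with upper-quartile scaling, 0.011 with the block, 0.0056 with that term and 0.016 within 4 and above. For the interaction, Notch1 was 0.054, Notch2 0.018 and Hey1 -0.033 within 4 and above, Notch2 was 0.0011 with the block, and Notch3 was -0.036, Jag1 -0.016, Jag2 -0.12 and Hes1 -0.24 within 1 to 3. The interaction of Hey1 was also -0.0011 with upper-quartile scaling, -0.0038 without the filter, -0.0092 with the block and -0.0090 with that term. Over all fits that left out 1 library, both signs occurred for cKO after novelty in Jag1 (-0.028 to 0.066) and Notch1 (-0.017 to 0.080), in the cKO average in Jag1 (-0.038 to 0.016), for cKO in naive in Heyl (-0.069 to 0.10) and Jag1 (-0.10 to 0.0066), in the novelty average in Hes1 (-0.0012 to 0.11) and after novelty in control in Hes1 (-0.098 to 0.11) and Jag2 (-0.097 to 0.025). For the interaction they occurred in Hes1 (-0.016 to 0.20), Hey1 (-0.026 to 0.031), Notch1 (-0.096 to 0.0037), Notch2 (-0.043 to 0.0079) and Notch3 (-0.032 to 0.078).

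Depth limits the members with few reads per library, such as Heyl (40 to 142), Jag1 (72 to 204) and Hes5 (41 to 234).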
